A study of Rattus norvegicus with 9 samples.

Results

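The proximal metabolic enzymes described here are 9 named genes of sugar, inositol, creatine, hydroxy acid, histamine and ester metabolism. They were taken from the table of gene levels wherever a row carried exactly the gene's name. A row was found for 7 of the 9, Miox, Gatm, Fbp1, Pck1, Hao2, Hnmt and Ces1d, among 30315 loci in all, and each name stood on a single row. No row carried the name G6pc, the catalytic subunit of glucose-6-phosphatase, and it was not analysed here. Khk, ketohexokinase, was named only on a locus that it shares with Emilin1, so it is not counted among the 7 and is given apart from them.

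The study sequenced outer medulla RNA from 9 MCW SS rats, a strain whose blood pressure is sensitive to salt, with 1 library per rat and 3 rats in each group. HS_DT rats ate 4% NaCl for 7 days after GapmeRs against Dnmt3a and Tet3, at 2 mg/kg each, were given into the kidney. HS_SCR rats had the same 7 days of diet with a scrambled GapmeR at 4 mg/kg by the same route. The rats labelled 0.4% salt were on the low-salt diet and had the same surgery, and their tissue was taken at the point where the other groups started treatment. GapmeRs are short antisense oligonucleotides that direct the cleavage of a matching RNA. The labels give no age, no sex and no group with the diet alone, so diet, scrambled GapmeR and the 7 days cannot be told apart.

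The proximal tubule is the part of the nephron that takes back most of the filtered solute, and it is also a metabolic organ. It makes glucose from lactate and glutamine, with Pck1, Fbp1 and G6pc as the enzymes that drive the pathway forward, and it supplies the body with guanidinoacetate for creatine. It breaks down inositol and fructose, and its peroxisomes oxidise hydroxy acids. The last, straight part of the tubule lies in the outer stripe of the outer medulla, beside the thick ascending limbs, while the convoluted part lies in the cortex.

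Levels are FPKM, fragment counts scaled to transcript length and to the library's mapped fragments, so that levels of different genes can be set side by side. Read counts are not given, and relative library depth, read from the steps between low values, ran from 0.761 to 1.37 with 0.4% salt replicate 1 set to 1. HS_SCR replicate 3 stood apart from the others on the second principal component, at -51.5 against -2.34 to 24.0 in the other 8 libraries, which held 22.1% of the variance. The rat numbers fall into a lower series (HS_DT replicates 1 and 2, HS_SCR replicates 1 and 2) and a higher one (replicate 3 of both groups and all 0.4% salt rats), a split the labels do not explain. Transcripts of the targeted genes were read beside the labels. Dnmt3a stood at 8.72 to 11.02 FPKM in HS_DT, 5.75 to 10.3 in HS_SCR and 12.2 to 13.4 in 0.4% salt, and Tet3 at 7.62 to 8.54, 5.04 to 8.20 and 8.47 to 9.64 FPKM in the same order of groups. Neither transcript had a lower mean in HS_DT than in HS_SCR (log2 changes 0.37 ± 0.18 and 0.34 ± 0.15, limma adjusted p = 0.303 and 0.271). Against 0.4% salt, Dnmt3a was lower in HS_SCR (-0.70 ± 0.18, limma adjusted p = 0.0367) and did not pass in HS_DT (-0.33 ± 0.18, limma adjusted p = 0.730). Tet3 passed in neither comparison. These levels do not show the targeting that the labels name. The labels record what was given, and the cause of these levels was not tested. Libraries labelled HS_DT are meant wherever HS_DT is written.

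Markers of the tissue were read beside the enzymes. Umod and Slc12a1 of the thick ascending limb reached 2608 and 975 FPKM, and the summed level of 7 markers of that segment was 2495 to 3467 FPKM in HS_DT, 1198 to 3206 in HS_SCR and 2842 to 4542 in 0.4% salt. Slc7a13, an amino acid transporter of the straight proximal tubule, was present at 109 to 319 FPKM in HS_DT, 3.66 to 162 in HS_SCR and 209 to 582 in 0.4% salt. The 15 genes of proximal transport and brush border, many of them strongest in the convoluted part, were split. Slc5a2, Slc34a3, Slc5a12 and Slc6a19 were at 1.14 FPKM or less in all 9 libraries, while Slc34a1 stood at 25.5 to 166 FPKM in HS_DT, 2.11 to 30.2 in HS_SCR and 68.6 to 231 in 0.4% salt, and Slc22a6 and Slc4a4 reached 43.8 and 38.1 FPKM. The summed level of 4 hepatocyte markers was at most 0.898 FPKM, although liver expresses many of the same enzymes. The share of convoluted and straight tubule in each piece of tissue cannot be read from these levels.

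Promoters of 3 members are shown, chosen after their values were seen. Miox had the largest change of HS_SCR from 0.4% salt, Gatm the next largest, and Pck1 left the pattern of the other enzymes in a single library. Any link between these sequences and the levels was not tested. The sequences are RefSeq's, on build GRCr8, 300 bases long from 250 bases before the annotated start site, each read 5′ to 3′ on the gene's own strand. Capitals mark exact matches, on either strand, to TNACGTCA (a cAMP response element), to TATAAA and to CCAAT.
Miox (chr7:122284410-122284709, plus strand): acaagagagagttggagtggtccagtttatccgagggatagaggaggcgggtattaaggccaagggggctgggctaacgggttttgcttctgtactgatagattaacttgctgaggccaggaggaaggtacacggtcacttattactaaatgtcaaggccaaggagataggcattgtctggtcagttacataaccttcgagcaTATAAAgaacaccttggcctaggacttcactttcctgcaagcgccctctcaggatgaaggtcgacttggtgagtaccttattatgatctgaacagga
Gatm (chr3:130129044-130129343, minus strand): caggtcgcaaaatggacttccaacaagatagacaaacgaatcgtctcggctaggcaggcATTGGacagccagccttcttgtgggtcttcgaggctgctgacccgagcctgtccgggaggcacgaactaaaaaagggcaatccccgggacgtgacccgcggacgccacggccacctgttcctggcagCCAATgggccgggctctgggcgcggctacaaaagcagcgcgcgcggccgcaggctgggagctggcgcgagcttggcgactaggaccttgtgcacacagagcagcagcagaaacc
Pck1 (chr3:182348322-182348621, plus strand): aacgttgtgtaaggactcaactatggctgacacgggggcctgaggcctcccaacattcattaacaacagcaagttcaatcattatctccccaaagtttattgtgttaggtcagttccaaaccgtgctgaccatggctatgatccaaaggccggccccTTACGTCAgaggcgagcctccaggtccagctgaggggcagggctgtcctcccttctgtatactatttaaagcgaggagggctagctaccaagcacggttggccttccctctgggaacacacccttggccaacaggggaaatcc

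Pck1 was the only 1 of the 7 promoters with a cAMP response element, TTACGTCA, starting 93 bases before the start site, a motif that 3.25% of 33469 rat promoter windows of this length hold. TATAAA was in Miox and Hao2 (14.2% of all windows) and CCAAT in Gatm, Fbp1, Hnmt and Ces1d (37.5%). CAAAGTCCA, a site of HNF4, and the nuclear receptor direct repeat with a spacer of 1 base matched none of the 7, against 0.391% and 0.0538% of all windows. TATAAA and CCAAT did not overlap the other motifs in these windows. A match is a run of letters, not a measured binding site.

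The enzymes were lower in the libraries labelled HS_SCR than in those labelled 0.4% salt, and HS_DT lay between these groups for 6 of the 7. All 7 log2 changes of HS_SCR from 0.4% salt were negative, with a median of -2.92 against 0.02 over all 14338 loci tested, and 5 of the 7 passed the test (limma with Benjamini-Hochberg adjustment over all loci), all lower. Over all loci tested, 4.88% were called lower in this comparison. The question asked here is what differs after a week of high salt with the scrambled GapmeR in this strain. Diet, GapmeR and time cannot be told apart in it. FPKM ranges lay wholly below those of 0.4% salt for 6 of the 7, against 14.5% of all loci, and 6 of the 7 had an unadjusted p under 0.05, against 32% of all loci. In the test over all 3 groups at once none of the 7 passed (limma F test, adjusted p from 0.0518 to 0.701), against 5.61% of all loci. In bulk tissue, fewer proximal cells and less RNA per cell cannot be told apart.

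**Figure D1:**
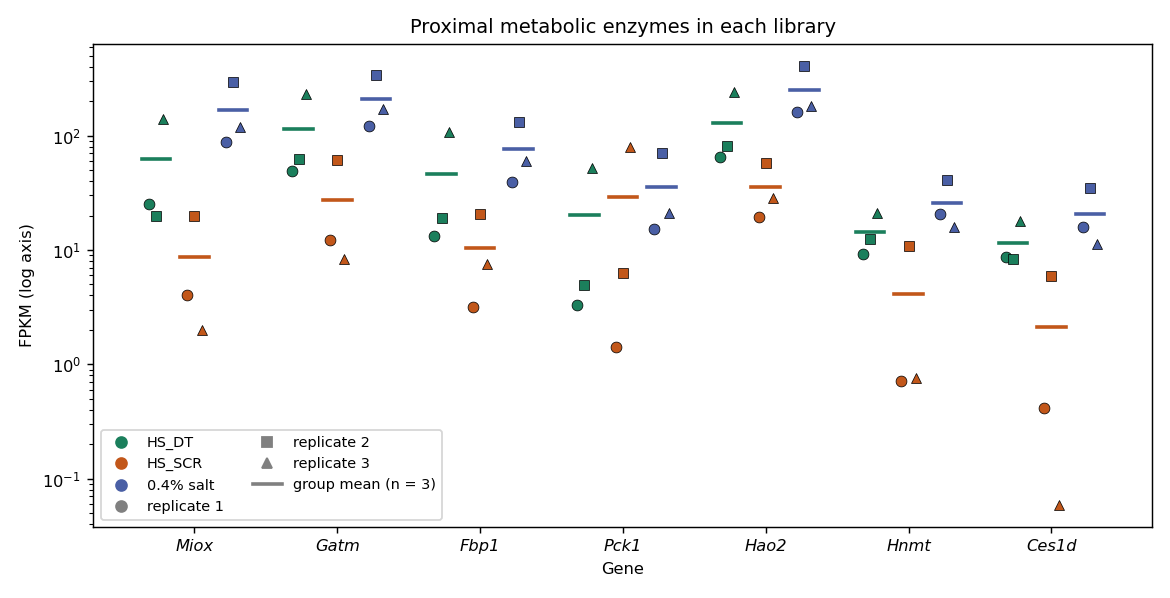
FPKM of each enzyme (log axis) in every library, with groups by colour in the order HS_DT, HS_SCR, 0.4% salt, replicates by symbol and the group mean (n = 3) as a bar. HS_SCR lies below 0.4% salt for every gene but Pck1, whose highest value of all, 79.8 FPKM, is in HS_SCR replicate 3.

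Miox, myo-inositol oxygenase, opens the inositol ring and makes glucuronate, and is found mainly in the kidney (rn5 chromosome 7, 129994006 to 129996503). Its level was 25.3, 19.9 and 140.4 FPKM in HS_DT replicates 1 to 3, 4.05, 20.0 and 2.00 FPKM in HS_SCR and 88.2, 296 and 119 FPKM in 0.4% salt. All HS_SCR libraries were below all those of 0.4% salt, and HS_DT replicate 3 alone of the high-salt libraries reached the 0.4% salt range. The mean was 8.67 ± 9.82 FPKM in HS_SCR, against 168 ± 112 FPKM in 0.4% salt (SD, n = 3 each), a 19.3-fold lower mean. The log2 change of Miox, -4.43 ± 0.90 (SE), was the largest of the 7 and passed (limma adjusted p = 0.0186).

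Gatm, glycine amidinotransferase of the mitochondrion, makes guanidinoacetate, the precursor of creatine (chromosome 3, 121249695 to 121274795). It stood at 48.5, 62.2 and 232 FPKM in HS_DT, 12.2, 60.8 and 8.34 FPKM in HS_SCR and 120.3, 338 and 169 FPKM in 0.4% salt. The 3 HS_SCR values were again below all 0.4% salt values, with HS_SCR replicate 2 close to HS_DT replicate 2. Its log2 change between these groups was -3.28 ± 0.80, a fall that passed (limma adjusted p = 0.0338).

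Of the gluconeogenic enzymes, Fbp1, fructose-1,6-bisphosphatase (chromosome 17, 391281 to 413144), measured 13.2, 19.0 and 107 FPKM in HS_DT, 3.15, 20.7 and 7.53 FPKM in HS_SCR and 38.9, 131 and 59.5 FPKM in 0.4% salt. Its HS_SCR and 0.4% salt ranges did not overlap, but the change of -2.90 ± 0.85 missed the threshold (limma adjusted p = 0.0575). Of the 9 fits that left out 1 library, Fbp1 passed in 1, that without HS_DT replicate 3 (limma adjusted p = 0.0320).

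Pck1, the cytosolic phosphoenolpyruvate carboxykinase that commits carbon to gluconeogenesis (chromosome 3, 177278782 to 177284731), did not follow the others. It was at 3.27, 4.95 and 51.9 FPKM in HS_DT, 1.40, 6.34 and 79.8 FPKM in HS_SCR and 15.2, 70.3 and 21.0 FPKM in 0.4% salt. HS_SCR replicate 3 held the highest Pck1 of all 9 libraries, 56.8 times the level of HS_SCR replicate 1, while Miox, Gatm and Ces1d had their lowest value of all 9 in that same library. Set against the mean deviation of the other 6 enzymes, Pck1 in HS_SCR replicate 3 lay 4.94 higher on the log2 scale, and its next highest such value was 0.21, in HS_DT replicate 3. The log2 change from 0.4% salt was -1.39 ± 1.36 with a 95% interval of -4.50 to 1.72 (limma adjusted p = 0.512). Without HS_SCR replicate 3 it was -2.81 ± 1.13 and did not pass either (limma adjusted p = 0.0875).

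Hao2, a peroxisomal 2-hydroxy acid oxidase (chromosome 2, 220246259 to 220278501), was the most abundant member in every group mean. Its values were 65.1, 81.3 and 239 FPKM in HS_DT, 19.5, 57.9 and 28.7 FPKM in HS_SCR and 162, 406 and 183 FPKM in 0.4% salt. The groups HS_SCR and 0.4% salt did not overlap, nor did HS_DT and HS_SCR, where every HS_DT library was higher. The log2 change of HS_SCR from 0.4% salt was -2.80 ± 0.58 (limma adjusted p = 0.0192), with the smallest SE among the 7.

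Hnmt, histamine N-methyltransferase, inactivates histamine inside cells (chromosome 3, 896387 to 928854). It was measured at 9.24, 12.6 and 21.2 FPKM in HS_DT, 0.714, 10.9 and 0.753 FPKM in HS_SCR and 20.6, 40.9 and 16.01 FPKM in 0.4% salt. HS_SCR replicates 1 and 3 were under 1 FPKM and replicate 2 was within the HS_DT range, and all 3 were below 0.4% salt. The log2 change in HS_SCR was -2.92 ± 0.73 (limma adjusted p = 0.0354).

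Ces1d, a carboxylesterase of the endoplasmic reticulum that splits lipid and drug esters (chromosome 19, 26294246 to 26337106), had 8.66, 8.41 and 17.8 FPKM in HS_DT, 0.412, 5.87 and 0.0591 FPKM in HS_SCR and 15.8, 34.8 and 11.2 FPKM in 0.4% salt. Its 3 HS_SCR values spanned 99.3-fold and were below every value of both other groups. The log2 change of HS_SCR from 0.4% salt was -3.16 ± 0.70 (limma adjusted p = 0.0244), on a scale where the pseudocount of 1 FPKM understates changes at levels this low. Reads of close carboxylesterase paralogs could be split between loci, so the Ces1d level carries that uncertainty.

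The number of calls depended on single libraries, among the enzymes and among all loci. The number called was 0 without 0.4% salt replicate 1 or 0.4% salt replicate 2, 2 without HS_SCR replicate 1, 3 without 0.4% salt replicate 3 or HS_DT replicate 2, 4 without HS_DT replicate 1, 6 without HS_DT replicate 3 and 5 without HS_SCR replicate 2 or 3, with log2 changes of the 5 from -5.24 to -2.39. Calls over all loci, 1874 with every library, numbered 445 and 345 without 0.4% salt replicates 1 and 2, 972 without 0.4% salt replicate 3, 1567, 923 and 5192 without HS_SCR replicates 1, 2 and 3, and 1078 to 1578 without an HS_DT library. The number of enzymes called was also 0 in the fit that adds the rat number series, with 1319 of all loci called, where the 5 changes ran from -4.16 to -2.31. Within the higher number series, which holds all 0.4% salt rats, HS_SCR replicate 3 stood apart from their mean by -5.61 for Miox to -2.96 for Hao2 in 6 enzymes and by 1.46 for Pck1, as single values with no test.

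The locus named Emilin1,Khk (chromosome 6, 36626189 to 36650480) joins Khk, which phosphorylates fructose, with Emilin1, an elastic fibre glycoprotein, and their reads cannot be told apart. It stood at 40.6, 38.2 and 43.1 FPKM in HS_DT, 36.8, 35.7 and 21.7 FPKM in HS_SCR and 34.4, 54.2 and 39.7 FPKM in 0.4% salt. HS_SCR and 0.4% salt overlapped, and the log2 change of -0.45 ± 0.22 did not pass (limma adjusted p = 0.198).

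Between HS_DT and HS_SCR, the comparison of the targeting with the scrambled GapmeRs on the same diet, 6 of the 7 enzymes had a higher mean log2 level in the libraries labelled HS_DT and none passed the test. The median log2 change was 2.15, against 0.00 over all loci tested. By limma with Benjamini-Hochberg adjustment 0 of 7 were called, as were 0% of all loci in the higher direction and 0.00697% in either direction, while 5 of 7 had an unadjusted p under 0.05, against 19.1% of all loci. Ranges lay wholly above HS_SCR for Hao2 and Ces1d, 2 of 7, against 9.1% of all loci. Ces1d had the smallest p, with a log2 change of 2.46 ± 0.70 (limma adjusted p = 0.124), and Miox the largest change, 2.64 ± 0.90 (limma adjusted p = 0.176). Gatm stood at 2.19 ± 0.80, Hnmt at 2.15 ± 0.73, Fbp1 at 1.77 ± 0.85 and Hao2 at 1.73 ± 0.58, with limma adjusted p from 0.169 to 0.303. Pck1 stood at -0.03 ± 1.36 with an interval of -3.14 to 3.08 (limma adjusted p = 0.994), and without HS_SCR replicate 3 at 1.39 ± 1.13 (limma adjusted p = 0.415).

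**Figure D2:**
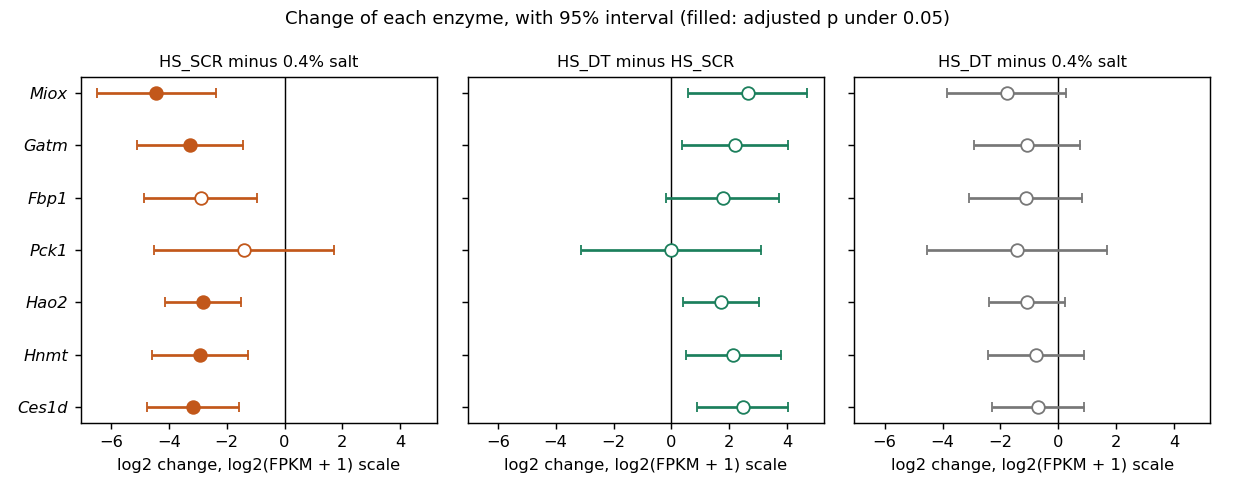
Log2 change of each enzyme with its 95% interval in the 3 comparisons, from the fit of all 9 libraries; filled points passed an adjusted p of 0.05. Of the 7 enzymes, 5 points are filled in HS_SCR minus 0.4% salt and none in the other panels, and Pck1 has the widest interval in each.

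Within the rats of the lower number series, HS_DT replicates 1 and 2 exceeded HS_SCR replicates 1 and 2 on average for all 7 enzymes, by 0.26 for Pck1 up to 1.61 for Ces1d on the log2 scale. In the higher series the single HS_DT rat exceeded the single HS_SCR rat by 3.01 (Hao2) to 5.56 (Miox) for 6 enzymes and stood at -0.61 for Pck1. These within-series differences have 2 libraries against 2, or 1 against 1, and carry no test. HS_DT replicate 3, the single HS_DT rat of the higher series, had the highest level of the group for all 7. It stood from 2.12 times the lowest library for Ces1d to 15.9 times for Pck1. In HS_SCR the rat of the higher series, replicate 3, was the highest of its group for Pck1 alone, 1 of 7.

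Against 0.4% salt, the HS_DT libraries had lower mean log2 levels of all 7 enzymes, with a median change of -1.09 against 0.01 over all loci, and none passed. By limma 0 of 7 were called and 0 of 7 had an unadjusted p under 0.05, against 0% and 7.49% of all loci. FPKM ranges overlapped for all 7, where 9.64% of all loci had HS_DT wholly lower. The changes ran from -0.70 ± 0.70 for Ces1d to -1.78 ± 0.90 for Miox, with limma adjusted p from 0.713 to 0.843. Within the higher number series, HS_DT replicate 3 differed from the 0.4% salt mean by -0.16 for Hnmt to 0.85 for Pck1 on the log2 scale, a single library with no test. Means in HS_DT were 61.9 ± 68.1 FPKM for Miox, against 168 ± 112 FPKM in 0.4% salt (SD, n = 3 each), and 128 ± 96.0 FPKM for Hao2, against 250.4 ± 136 FPKM in 0.4% salt. These 2 groups share their libraries with the other 2 comparisons, so the 3 sets of changes are not independent.

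The order of the levels differed between groups. In 0.4% salt the mean FPKM fell in the order Hao2, Gatm, Miox, Fbp1, Pck1, Hnmt and Ces1d, with 250.4 ± 136, 209 ± 114, 168 ± 112, 76.3 ± 48.1, 35.5 ± 30.3, 25.8 ± 13.2 and 20.6 ± 12.5 FPKM (SD, n = 3). HS_DT kept that order, from 128 FPKM for Hao2 to 11.6 FPKM for Ces1d. In HS_SCR Miox came after Fbp1, at 8.67 ± 9.82 and 10.5 ± 9.16 FPKM, and Pck1 came second at 29.2 ± 43.9 FPKM, through replicate 3 alone. Since the enzymes rose and fell together between rats, neighbours were compared within each library, with no test. In 0.4% salt and in HS_DT each gene exceeded the next in all 3 libraries except Pck1 before Hnmt, which held in 2 of 3 and 1 of 3. The steadiest step was Miox over Fbp1 in 0.4% salt, at ratios of 2.27, 2.26 and 2.00 in replicates 1 to 3. In HS_SCR, Gatm over Fbp1, Miox over Hnmt and Hnmt over Ces1d held in all 3 libraries, while both steps next to Pck1 and that of Fbp1 over Miox did not.

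The enzymes varied together with proximal transporters across libraries. A transport score, the mean log2(FPKM + 1) of 11 proximal transporters and brush border genes with no enzyme among them, was 3.55, 3.84 and 5.50 in HS_DT replicates 1 to 3, 2.15, 3.87 and 2.72 in HS_SCR and 4.57, 5.76 and 4.97 in 0.4% salt. HS_DT replicate 2 and HS_SCR replicate 2 had nearly the same score, a pair chosen after the values were seen. They also had nearly the same Miox (19.9 and 20.0 FPKM), Gatm (62.2 and 60.8 FPKM) and Fbp1 (19.0 and 20.7 FPKM). Their Hnmt (12.6 and 10.9 FPKM), Hao2 (81.3 and 57.9 FPKM), Ces1d (8.41 and 5.87 FPKM) and Pck1 (4.95 and 6.34 FPKM) lay further apart. With this score as a covariate the median log2 change of the 7 enzymes in HS_SCR from 0.4% salt was -0.70, 0 were called, as were 0 of all loci, and Fbp1 and Pck1 turned positive, at 0.25 and 1.59 (limma adjusted p = 0.515 and 0.765). The score itself was lower in every HS_SCR library than in every 0.4% salt library, so this fit cannot separate the score from the group. The part of the score in the change was not tested.

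**Figure D3:**
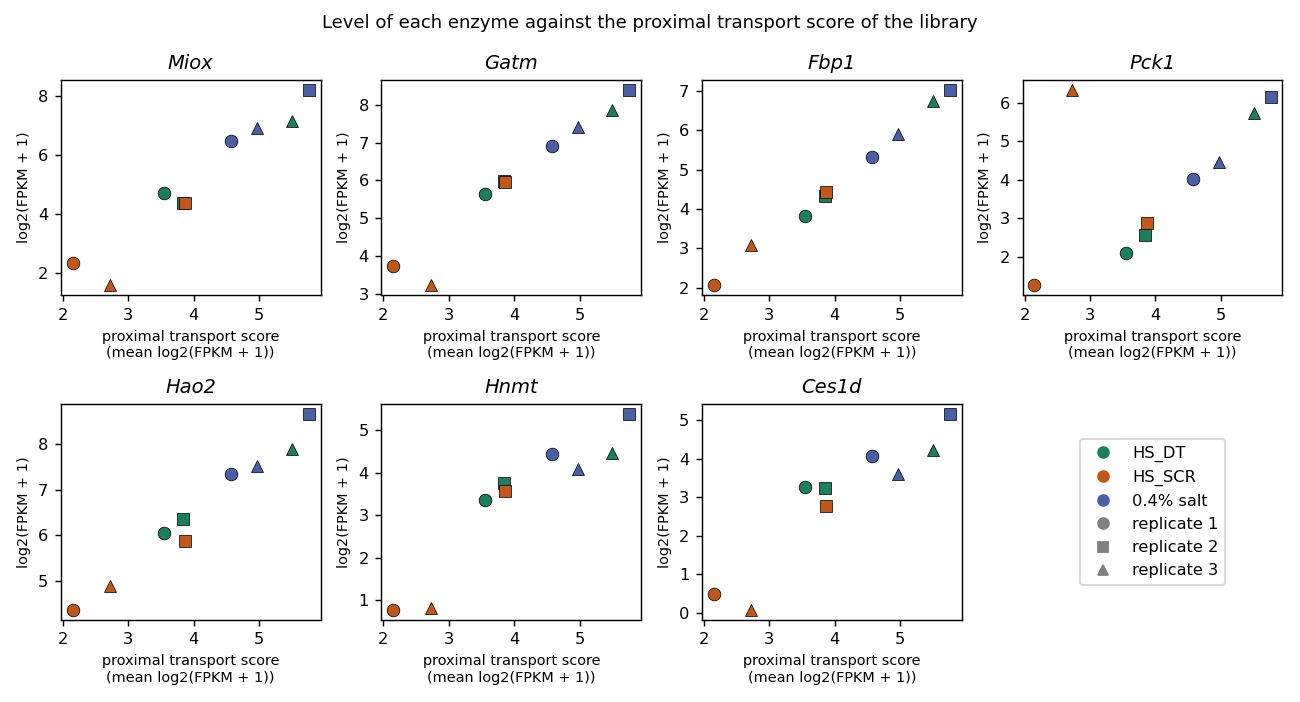
Level of each enzyme, log2(FPKM + 1), against the proximal transport score of the library, with groups by colour and replicates by symbol. HS_SCR replicate 3, at a score of 2.72, is lowest for Miox, Gatm and Ces1d and highest for Pck1.

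The other proximal markers moved in the same comparison. Of the 11 tested genes of proximal transport and brush border, 5 fell in HS_SCR against 0.4% salt and 6 missed the threshold. Their median was -2.04 on the log2 scale, and 4.88% of all loci were called lower. The summed level of these 11 with 4 untested genes was 220 to 804 FPKM in HS_DT, 78.6 to 316 in HS_SCR and 446 to 1087 in 0.4% salt. All 6 tested markers of the straight tubule had negative changes, with a median of -2.003 and no call by limma. Of the 6, 4 had an unadjusted limma p under 0.05, against 32% of all loci. In HS_SCR replicate 3 the markers of both proximal lists were split as the enzymes were: Slc7a13 was at 3.66 FPKM and Slc22a7, an organic anion transporter, at 0.287, below all other libraries, while Napsa, an aspartic protease, was at 39.5 and Cubn, an endocytic receptor, at 19.9 FPKM, each within the 0.4% salt range. These 4 markers were chosen after their values were seen. Of 7 thick ascending limb markers 2 fell, of 6 macrophage markers 5 rose and all 3 erythroid markers rose in HS_SCR. Over all loci, 4.88% were called lower and 8.2% higher in this comparison. The part of other cell types in the fall of the enzymes was not tested.

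Genes that act beside the enzymes were read from 9 lists of partners, 90 names with 81 rows, of which 66 passed the filter on low values. In HS_SCR against 0.4% salt, 8 of the 66 fell, 1 rose and 57 missed the threshold (limma; median -0.27 on the log2 scale; 13.1% of all loci were called in either direction). The fallen partners included Ces2h, a carboxylesterase (-1.61 ± 0.38), and Ppargc1a, a coactivator of mitochondrial and gluconeogenic genes (-1.33 ± 0.29). Levels of Ces2h were low, at 0.0327 to 1.16 FPKM in HS_SCR and 2.32 to 5.26 FPKM in 0.4% salt. Dcxr, which reduces L-xylulose on the route from glucuronate (-0.94 ± 0.24), Ppara, a lipid-sensing nuclear receptor (-0.78 ± 0.14), and Nr1h4, the bile acid receptor (-0.72 ± 0.16), fell as well. Aldoc, an aldolase, rose at low levels, 3.43 ± 0.710 FPKM in HS_SCR and 1.51 ± 0.300 FPKM in 0.4% salt (0.81 ± 0.15, limma adjusted p = 0.01502). The number of partners that fell was 0 without 0.4% salt replicate 1 or replicate 2 and 5 without 0.4% salt replicate 3. It was 4 without HS_SCR replicate 1, 12 without HS_SCR replicate 3, 14 without HS_DT replicate 3 and 6 or 7 without any other. Calls over all loci in these fits, in either direction and given above, were also fewest without 0.4% salt replicate 1 or 2. They were most numerous without HS_SCR replicate 3, and below the 1874 of the main fit without HS_DT replicate 3.

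By role, the transcription regulators held 6 of the 8 falls among 12 tested, where 4.88% of all loci were called lower. Hnf4a, a factor central to proximal tubule and liver enzyme genes, did not pass, with 4.97, 8.27 and 29.3 FPKM in HS_DT, 0.868, 8.62 and 6.41 in HS_SCR and 14.1, 38.8 and 18.1 in 0.4% salt (-2.14 ± 0.75, limma adjusted p = 0.0926). Of 9 peroxisomal and glyoxylate genes, all 9 changes were negative, with a median of -1.31 and no call by limma. Of the 9, 7 had an unadjusted limma p under 0.05, against 32% of all loci. Grhpr, glyoxylate reductase, stood at -1.41 ± 0.41 (limma adjusted p = 0.0534). The partners of gluconeogenesis had a median of 0.06 and no call among 11. Of these, Pck2, the mitochondrial counterpart of Pck1, was at 0.03. Ammonia and glutamine genes (9 tested, median -0.22), creatine genes (3 tested, -0.14) and histamine and amine genes (4 tested, 0.05) had no call, and of 8 fructose and polyol genes Aldoc alone was called (median 0.04). Hnf4a, Grhpr and Pck2 were chosen after their values were seen.

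**Figure D4:**
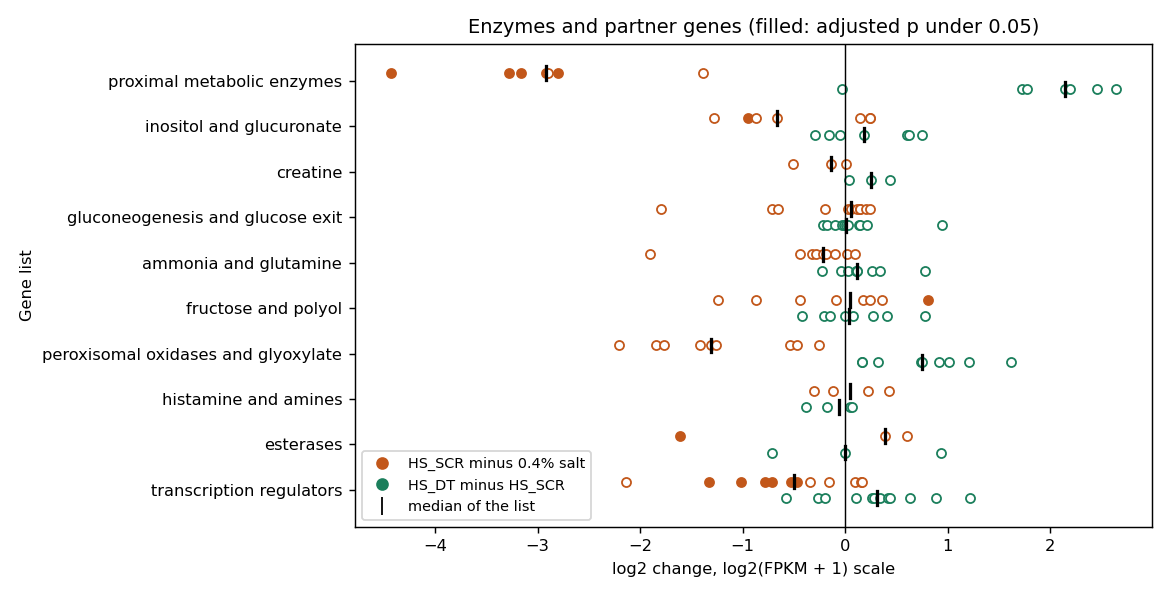
Log2 change of the enzymes and of the tested partner genes by list, in HS_SCR minus 0.4% salt (orange) and HS_DT minus HS_SCR (green), with the median of each list as a bar; filled points passed an adjusted p of 0.05. The enzymes have medians of -2.92 and 2.15, and the peroxisomal list, the furthest of the partner lists in either comparison, -1.31 and 0.75.

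In HS_DT against HS_SCR no partner passed by limma, and 17 of 66 had an unadjusted p under 0.05, against 19.1% of all loci. Pnpla2, a triglyceride lipase (-0.71 ± 0.19), and Ugdh, which makes UDP-glucuronate (-0.29 ± 0.08), had the smallest p. Each had a limma adjusted p of 0.106. In HS_DT against 0.4% salt none passed and 6 of 66 had an unadjusted p under 0.05, against 7.49% of all loci. The smallest were those of Hk2, a hexokinase (0.32 ± 0.11, limma adjusted p = 0.515), and Nr1h4 (-0.43 ± 0.16, limma adjusted p = 0.573).

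Across the 9 libraries, the genes whose log2 levels were most like the mean profile of the 7 enzymes were Mettl7b, Hykk, Ak4, Pdzk1 and Topaz1, with Pearson r from 0.994 to 0.996. These coefficients describe 9 points that share libraries and tissue composition, and the genes were picked as the highest of all single-symbol loci tested. Miox was most like Ces2h (0.995), which was at 5.26 FPKM or less. Gatm was most like Slc34a1, the phosphate transporter of the brush border (0.999), and Hao2 most like Hykk (0.996). Fbp1 was nearest to Pcdh17 (0.996), Hnmt to Slco1a6, an organic anion transporter (0.992), and Ces1d to Vstm5 (0.991). Pck1 was most like Slc6a20, an imino acid transporter (0.989), which at 2.79 FPKM was also high in HS_SCR replicate 3, against 0.237 and 0.818 FPKM in HS_SCR replicates 1 and 2.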

How the data were processed

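RNA from the renal outer medulla of 9 rats was measured by RNA-seq, and the authors deposited FPKM for 30315 loci. Per the submitters' processing notes the tools include Trim Galore 0.2.5 and Cufflinks 2.2.1, with build rn5; aligner and annotation: not given in the sources used here. FPKM depends on the length model and on the total of each library, so a few abundant genes can shift the rest. Columns were matched by the rat number in each title; 1 further column repeated HS_DT replicate 3 at all 30315 loci and was not used. Depth is unknown apart from the relative depth given.

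Log2(FPKM + 1) was fitted for 14338 loci whose mean over the 9 libraries reached 1 FPKM, a filter that all 7 enzymes passed, with limma 3.58.1 (R 4.3.3, moderation following the mean level) in a single fit of 3 groups, 6 residual degrees of freedom. Tests were two-sided, adjusted by Benjamini-Hochberg over all loci, and called under 0.05; intervals are 95%. The code was tested on simulated data. All 7 enzymes are named; partners are named if called (at most 6 per direction by size, otherwise the 2 smallest p), except that some are not reported here; like genes are the 5 highest r with the mean profile and the highest for each enzyme. The members and lists were chosen with earlier results of these data known. Nothing in the labels says whether rats shared litters or days or what a replicate number stands for. The p-values treat the rats as independent. They set each change against the spread between rats within groups, moderated over all loci. Alternatives were other pseudocounts, filters and scalings, library weights, 2-group fits, the replicate block, the rat number series, the transport score and leaving out libraries.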

Additional observations from a re-analysis of the deposited data

How the results depend on the processing

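Leaving out 1 library at a time, the number of enzymes called lower in HS_SCR against 0.4% salt ranged from 0 to 6, against 5 with all libraries, and was 0 throughout in both other comparisons. It was 3 with no filter on low values, 2 in the fit of the 2 groups compared only, and 0 in the fit with a term for rat number series, with the transport score as a covariate, or with both richest libraries (0.4% salt replicate 2 and HS_DT replicate 3) left out, an alternative chosen after seeing the data. All loci called in the last 3 of these fits numbered 1319, 0 and 0, against 1874 in the main fit. They numbered 1543 with no filter and 466 in the 2-group fit. In HS_DT against 0.4% salt the number of enzymes called was 1 with library weights (Miox, limma adjusted p = 0.0367). In HS_SCR against 0.4% salt these weights gave 5 enzymes called, with 4019 of all loci. With the replicate block 6 enzymes were called in HS_SCR against 0.4% salt, Fbp1 added (limma adjusted p = 0.0402), and 0 in the others. All loci called with the block numbered 1906 in HS_SCR against 0.4% salt. Residuals of same-numbered rats correlated above 0.1 in 5 of 9 pairs, against 2 of 18 pairs with different numbers. Deviations within a group cancel out, so these pairs are not independent, and not every same-numbered pair passed 0.1. In both high-salt groups replicate 3 is also the only rat of the higher number series. The correlations therefore cannot decide whether the numbers are shared. The labels give no shared animal or day, and the fit without the block was kept.

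Signs turned as follows. With the transport score as a covariate, Fbp1 stood at 0.25 in HS_SCR against 0.4% salt, -0.22 in HS_DT against HS_SCR and 0.027 in HS_DT against 0.4% salt, where Hnmt stood at 0.033 and Ces1d at 0.051; Pck1 stood at 1.59 in HS_SCR against 0.4% salt. With the rat number series Pck1 stood at 1.17 in HS_SCR and 1.14 in HS_DT against 0.4% salt. In HS_DT against HS_SCR, Pck1 ranged from -1.16 to 1.39 with 1 library left out, and stood at 0.064 and 0.013 with pseudocounts of 0.1 and 0.5 FPKM and 0.20 with library weights. The cause was not tested. Over 21 alternatives Miox and Hao2 kept their call in 16 each, Ces1d in 14, Gatm in 11 and Hnmt in 10, all with a negative change. Low values, such as Ces1d in HS_SCR, come with no fragment count, so their counting error is unknown.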
